A study of Mus musculus with 2 samples.

Results

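TNF superfamily ligands and receptors were examined in RNA of 2 islet graft samples, each taken 6 hours after transplantation. The members were all genes named Tnfsf or Tnfrsf with a number, together with Tnf, Lta, Ltb, Ltbr, Fas, Fasl, Cd27, Cd70, Cd40, Cd40lg, Ngfr, Edar and Eda, provided that a probe set of the array carried that symbol only. This gave 40 genes of 18193, or 69 probe sets of 45037. They were 14 ligands, 25 receptors and Tnfsf13os, a transcript of the opposite strand that the naming rule also took and that encodes no ligand.

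In both samples, 50 islets of wild type C57BL/6 donors had been placed under the left kidney capsule of a recipient. In one sample the recipient was a hyperglycemic male mouse heterozygous for Akita, a missense mutation of the insulin gene Ins2. In the other it was a normoglycemic wild type (WT) C57BL/6 mouse. These are called the Akita graft and the WT graft below. There was 1 MOE430 2.0 array per condition, which allows neither a test nor a replicate error, and blood glucose and genotype of the recipient cannot be told apart. The sources used here do not say how many mice contributed to a sample, and the donor islets and the recipient tissue around them were measured together. In such bulk samples, fewer cells of a type and less RNA per cell cannot be told apart.

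Ligands of the TNF superfamily are made as trimers on the cell surface or released from it, and each binds 1 or a few receptors. Some receptors, such as Fas, carry a death domain in the cytoplasm and can start apoptosis, whereas others bind TRAF adaptor proteins and activate NF-kB. Decoy receptors bind a ligand without passing on a signal. In islet transplantation, TNF is known as an inflammatory cytokine that harms beta cells, and its blockade has been used to improve engraftment.

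The signals were MAS5 intensities on a linear scale. The median over all probe sets of an array, 91.5 for the Akita graft and 82.9 for the WT graft, served as a floor. Genes that reached it on 1 array or both are called measured. Ratios were taken with lower signals raised to the floor, so that a gene above it on 1 array only has a bound in place of a fold, and a gene below it on both has none. Signals of different probe sets depend on the probes and were not read as relative amounts of RNA.

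Ins2, the insulin gene that marks beta cells, had a signal of 88302 in the Akita graft and 68738 in the WT graft. Kidney genes were measured too in these samples labelled islet grafts, with all 7 listed markers of the proximal tubule above the floor, such as Kap at 128500.0 in the Akita graft and 89517 in the WT graft. The mean signal, with 2% of probe sets trimmed at each end, was 500.0 on both arrays. The array of the Akita graft was brighter for the 18 hybridization control probe sets, which measure control RNA added to each array, by a median of 1.91-fold. For Gapdh, the 3' control probe set over the 5' one, a sign of RNA quality, gave 1.76 in the Akita graft and 1.30 in the WT graft. The same ratio for beta-actin was higher, with 3.99 in the Akita graft and 3.54 in the WT graft.

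Few ligands but many receptors of the family were measured. Of 14 ligands, 2 were measured, and of 25 receptors, 15 were, so that 17 of 40 members (42.5%) were measured, against 68.9% of all 18193 genes. The ligands TWEAK and APRIL, named below with their receptors, were not among these 14, so the ligand count does not cover the whole family. Both signals reached the floor in 11 members, against 59.5% of all genes with both. Another 5 members reached the floor only in the Akita graft, and 1 member only in the WT graft. Of all 18193 genes, 798 reached it only in the Akita graft and 924 only in the WT graft.

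**Figure D1:**
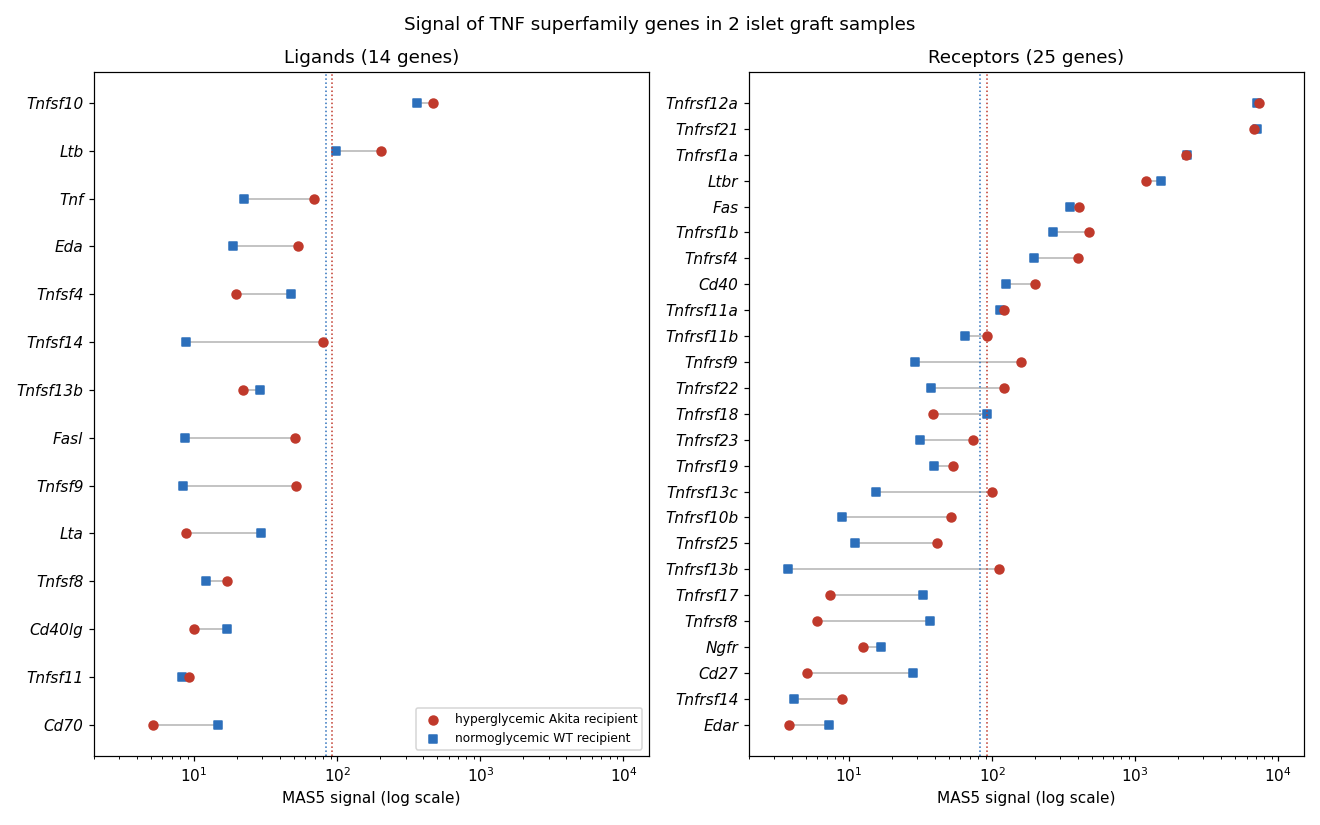
MAS5 signal (x axis, log scale) of each ligand and receptor in the Akita graft (red circles) and the WT graft (blue squares), with genes in order of mean log2 signal; dotted lines mark the array medians of 91.5 (Akita) and 82.9 (WT). Of the ligands, only Tnfsf10 and Ltb lie above the medians, and the points of Tnfrsf12a, Tnfrsf21 and Tnfrsf1a almost cover each other.

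Of the 17 measured members, 2 were past 2-fold higher in the Akita graft, 0 were past 2-fold lower, and 0 were past 5-fold in either direction. Among all 12538 measured genes, 4.33% were past 2-fold higher, 2.15% past 2-fold lower, 0.67% past 5-fold higher and 0.0319% past 5-fold lower. The 2 genes were the ligand Ltb and the receptor Tnfrsf4, both just past the limit, and the share of members (11.8%) rests on them alone. With both arrays centred on their medians 0 members were past 2-fold in either direction (3.32% of all measured genes higher and 3.92% lower), and with the hybridization controls taken as equal 0 were higher and 2, Ltbr and Tnfrsf21, lower (1.08% of all measured genes higher and 47.3% lower). With the floor, 13 of the 17 measured members had ratios above 1 and 4 below, against 5827 and 6711 of all 12538 measured genes. The median log2 ratio was 0.28 over the measured members and -0.04 over all measured genes. With the hybridization controls taken as equal it was -0.66 over the members and -0.97 over all measured genes.

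The upstream sequences of Ltb and Tnfrsf4, the 2 members past 2-fold, and of Tnfrsf12a, a receptor with high signals and a ratio near 1 on both probe sets, are shown so that the genes past 2-fold can be read beside 1 with little difference. Each is the 250 bases before the transcription start site in RefSeq (GRCm38.p6), 5′ to 3′ on the strand of the gene, with matches to motifs in capitals.
Ltb, chr17:35194257-35194506, plus strand: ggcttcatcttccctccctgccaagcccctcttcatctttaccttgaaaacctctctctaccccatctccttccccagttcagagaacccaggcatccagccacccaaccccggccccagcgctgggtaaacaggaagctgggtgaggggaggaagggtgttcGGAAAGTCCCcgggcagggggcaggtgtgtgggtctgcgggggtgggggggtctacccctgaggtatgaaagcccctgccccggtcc
Tnfrsf4, chr4:156013445-156013694, plus strand: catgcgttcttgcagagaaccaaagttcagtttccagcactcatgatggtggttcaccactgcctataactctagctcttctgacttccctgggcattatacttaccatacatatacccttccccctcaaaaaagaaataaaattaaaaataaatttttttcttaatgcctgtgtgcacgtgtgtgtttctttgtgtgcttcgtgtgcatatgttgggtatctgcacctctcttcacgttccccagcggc
Tnfrsf12a, chr17:23677450-23677699, minus strand: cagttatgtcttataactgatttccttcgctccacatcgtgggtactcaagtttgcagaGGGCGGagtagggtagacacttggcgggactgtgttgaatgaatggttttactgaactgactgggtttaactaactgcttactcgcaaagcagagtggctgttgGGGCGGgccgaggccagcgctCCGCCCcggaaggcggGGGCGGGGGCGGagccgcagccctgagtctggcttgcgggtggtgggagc

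The motifs searched on both strands were the NF-kB consensus, GGGCGG (the GC box bound by Sp1), TATAAA (the TATA box) and TGANTCA (the AP-1 site). The capitals in Ltb mark 1 match to the NF-kB consensus, which reads GGGACTTTCC on the other strand and starts 87 bases before the start site. The capitals in Tnfrsf12a mark 5 matches to GGGCGG, 1 of them on the other strand, and Tnfrsf4 held none of the 4 motifs in this window. The matches did not overlap each other.

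For 31 member genes, 35 promoters were listed. The NF-kB consensus was found in 4 of these 35, those of Ltb, Tnfrsf8, Tnfrsf9 and Tnfrsf25, and in 7.25% of all 32851 promoters of the same length. GGGCGG was found in 16 of the 35 promoters (16 of the 31 genes) and in 32.7% of all promoters. TATAAA was found in 5 of the 35 promoters, among them those of Tnf and Lta, and in 12.4% of all promoters. TGANTCA was found in 5 of the 35 and in 6.75% of all promoters. A match describes letters in this window and is not a bound site.

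The inflammatory ligands differed in whether they were measured. Ltb, lymphotoxin beta, which anchors lymphotoxin alpha to the cell surface, had a signal of 203 in the Akita graft and 98.0 in the WT graft, a ratio of 2.07. Both signals of Ltb were close to the floor, where the ratios of 2 probe sets of 1 gene scattered by 1.55-fold (1 SD, mean signals of 64 to 256), which is technical and no replicate error. Tnf, the founding member and target of the blockade mentioned above, had signals of 68.7 in the Akita graft and 22.2 in the WT graft, both below the floor. Lta, lymphotoxin alpha, had signals of 8.76 in the Akita graft and 29.4 in the WT graft. These 3 genes stand next to each other in the RefSeq annotation, with 0 protein-coding genes between them, and only Ltb was measured. The table holds 1 probe set for each of them.

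The death ligands were Tnfsf10 and Fasl. Tnfsf10, or TRAIL, which binds death receptors on many cell types, had a signal of 466 in the Akita graft and 360.0 in the WT graft on its brightest probe set, a ratio of 1.29. A second probe set of Tnfsf10 had signals of 97.0 in the Akita graft and 289 in the WT graft, 2.97-fold lower, and the third had 90.8 in the Akita graft and 73.3 in the WT graft, both below the floor. The direction of Tnfsf10 thus depended on the probe set. Fasl, the ligand of Fas on cytotoxic lymphocytes, had signals of 50.8 in the Akita graft and 8.68 in the WT graft, both below the floor.

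The costimulatory ligands, which act on T cells, were all below the floor in both grafts. Tnfsf14, or LIGHT, had signals of 79.97 in the Akita graft and 8.74 in the WT graft. Tnfsf9, the ligand of 4-1BB, had signals of 51.3 in the Akita graft and 8.34 in the WT graft. Tnfsf4, the ligand of OX40, had signals of 19.6 in the Akita graft and 47.6 in the WT graft. Cd70 and Tnfsf8 were below the floor as well, and Cd70 lies directly between Tnfsf9 and Tnfsf14 in the annotation, so that none of the 3 genes of this cluster was measured.

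The other ligands were also below the floor in both grafts. Tnfsf13b, or BAFF, a survival factor of B cells, had signals of 22.1 in the Akita graft and 28.9 in the WT graft. Cd40lg, the ligand that activates B cells and macrophages through CD40, Tnfsf11, or RANKL, which drives osteoclast formation, and Eda, a ligand of skin appendage development, completed the group. Over all 12 unmeasured ligands, signals were between 5.14 and 79.97 in the Akita graft and between 8.24 and 47.6 in the WT graft, and 7 were higher and 5 lower as deposited.

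Of the 7 receptors with a death domain, 3 were measured, and none of these differed by 2-fold as deposited. Tnfrsf1a, the main receptor of TNF on most cells, had a signal of 2259 in the Akita graft and 2314 in the WT graft, a ratio of 0.98. Tnfrsf21, or death receptor 6, had signals of 6720.3 in the Akita graft and 7088 in the WT graft (ratio 0.95), and its other probe set had 1522 in the Akita graft and 1499 in the WT graft (ratio 1.02). Fas, which can start apoptosis when bound by its ligand, had signals of 405 in the Akita graft and 349 in the WT graft, a ratio of 1.16. These 3 ratios were within 1 SD of the ratios between probe sets at their signals. Tnfrsf10b, the death receptor of TRAIL in mouse, had 51.8 in the Akita graft and 8.95 in the WT graft, and Tnfrsf25, Ngfr and Edar were below the floor as well.

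Of 5 other receptors, grouped here as binding TRAF adaptors, 4 were measured and differed by less than 2-fold. Tnfrsf12a, or Fn14, the receptor of TWEAK that is known to be induced in injured tissue, had a signal of 7370.5 in the Akita graft and 7129 in the WT graft, and its other probe set had 7198 in the Akita graft and 7020.4 in the WT graft. Both ratios were 1.03. Ltbr, the receptor of lymphotoxin and LIGHT, had signals of 1186 in the Akita graft and 1515 in the WT graft, a ratio of 0.78, the lowest among the measured members with the floor. Tnfrsf1b, the TNF receptor found mainly on leukocytes and endothelium, had signals of 477 in the Akita graft and 265 in the WT graft (ratio 1.80), while its other probe set was below the floor with 36.4 in the Akita graft and 47.1 in the WT graft. Tnfrsf11a, or RANK, had signals of 122 in the Akita graft and 113 in the WT graft. Tnfrsf19 was below the floor.

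Of 11 members with both signals at or above the floor, 5 had log2 ratios within 1 SD of the scatter between probe sets around equality. The other 6 were Ltb, Tnfrsf4, Tnfrsf1b and Cd40, which were higher in the Akita graft, Ltbr, which was lower, and Tnfsf10. Tnfsf10 was higher on its brightest probe set but lower on the second (log2 ratio -1.57). The median of its probe sets was the signal of that second one on both arrays and adds nothing to it. The third, below the floor, had a ratio of 1.24. With the hybridization controls taken as equal, Tnfrsf1b, Cd40 and Tnfsf10 had log2 ratios of -0.09, -0.26 and -0.56.

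**Figure D2:**
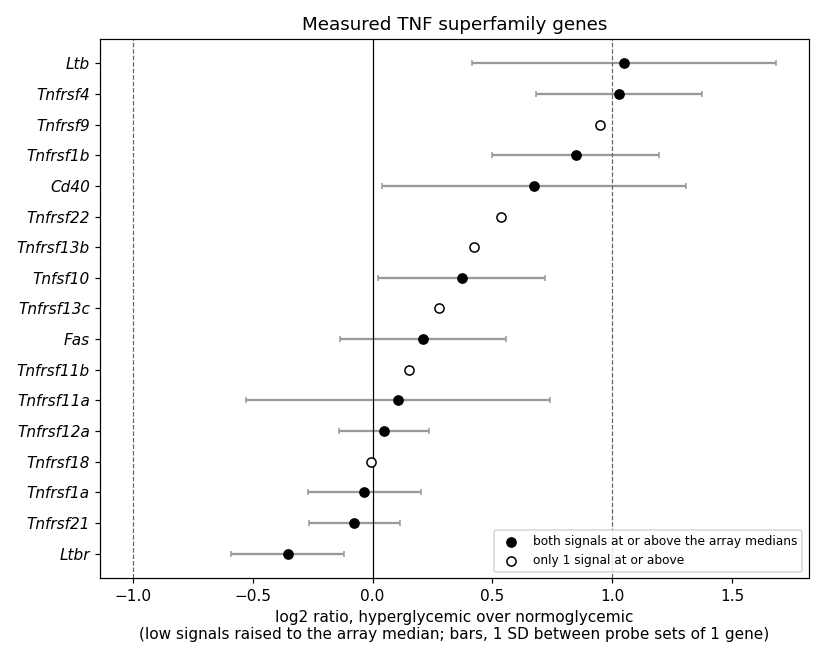
Log2 ratio of Akita over WT graft signals (x axis) for the 17 measured members, with low signals raised to the array median; filled points reach the medians on both arrays, open points are bounds, and bars are 1 SD of the ratio between probe sets of a gene at that signal. Ltb (1.05) and Tnfrsf4 (1.03) lie just past the dashed line of 2-fold and fall to 0.12 and 0.09 with the hybridization controls taken as equal.

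Of 6 costimulatory receptors, 3 were measured, and they differed in which graft reached the floor. Tnfrsf4, or OX40, a receptor of activated T cells, had a signal of 398 in the Akita graft and 195 in the WT graft, a ratio of 2.04 on its single probe set. Tnfrsf9, or 4-1BB, had signals of 160.1 in the Akita graft and 29.1 in the WT graft and was at least 1.93-fold higher (log2 ratio of at least 0.02 with the hybridization controls taken as equal), but its other 2 probe sets were below the floor, with 41.3 and 9.90 in the Akita graft and 69.6 and 9.27 in the WT graft. Tnfrsf18, or GITR, the direct neighbour of Tnfrsf4 in the annotation, had signals of 38.8 in the Akita graft and 91.8 in the WT graft. Cd27, Tnfrsf8 and Tnfrsf14 were below the floor. Tnfrsf4 was thus the only costimulatory receptor with both signals at the floor, and its ligand Tnfsf4 was not measured.

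Most markers of T cells were below the floor in both grafts. Of 8 listed markers of T and NK cells, 5 were on probe sets used here and 1 was measured, Cd8a with 146 in the Akita graft and 123 in the WT graft. Cd3e, a subunit of the T cell receptor complex, had signals of 12.8 in the Akita graft and 18.8 in the WT graft, and the summed signal of the list was 219 in the Akita graft and 231 in the WT graft. Of 6 mast cell markers, 5 were measured and 1, Cpa3, was past 2-fold higher, with a summed signal of 1348 in the Akita graft and 276 in the WT graft. Tpsab1, a mast cell tryptase, was lower, with 91.4 in the Akita graft and 131 in the WT graft, and Ms4a2, a subunit of the mast cell IgE receptor, was below the floor in both. The part of mast cells in the ratios of these receptors was not tested.

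Of 4 receptors of B cells and antigen-presenting cells, Cd40 reached the floor in both grafts and Tnfrsf13b and Tnfrsf13c in the Akita graft only, all at low signals, and the log2 ratio of Cd40 was 0.67, or -0.26 with the hybridization controls taken as equal. Cd40, which activates B cells and macrophages when bound by its ligand, had signals of 200.3, 185 and 170 in the Akita graft on its 3 probe sets, against 126, 66.1 and 73.2 in the WT graft on the same probe sets. The ratio was 1.59 on the brightest and at least 2.23 and 2.05 on the others, so that all 3 pointed the same way. Tnfrsf13b, or TACI, a receptor of BAFF and APRIL, had signals of 111 in the Akita graft and 3.73 in the WT graft and was at least 1.34-fold higher. Tnfrsf13c, the BAFF receptor, had signals of 100.5 in the Akita graft and 15.4 in the WT graft and was at least 1.21-fold higher. With the hybridization controls taken as equal, the bounds of Tnfrsf13b and Tnfrsf13c became log2 ratios of -0.51 and -0.66, which no longer give a direction. Tnfrsf17, or BCMA, a receptor of plasma cells, was below the floor with 7.32 in the Akita graft and 33.0 in the WT graft.

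The ratio of Tnfrsf13b as deposited was 29.8 and that of Tnfrsf13c 6.52, the highest among the measured members, and both rest on a WT graft signal far below the floor. At mean signals of 16 to 64 the ratios of 2 probe sets of 1 gene scattered by 2.95-fold (1 SD). Without a floor, 6 of the 17 measured members were past 2-fold higher, 3 past 5-fold higher, 1 past 2-fold lower and 0 past 5-fold lower, against 7.56%, 2.42%, 5.54% and 1.38% of all measured genes. The study listed Tnfrsf13b, Tnfrsf13c, Tnfsf14, Tnfsf9 and Fasl as upregulated on these same arrays, which is therefore not independent evidence. Tnfsf14, Tnfsf9 and Fasl were below the floor in both grafts.

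Measured markers of macrophages and neutrophils, and some of B cells, were higher in the Akita graft. Of 6 B cell markers used here, 3 were measured and 2 were past 2-fold higher, Cd79b with 370.0 in the Akita graft and 10.3 in the WT graft and Ms4a1 with 435 in the Akita graft and 63.3 in the WT graft, and the summed signal was 982 in the Akita graft and 257 in the WT graft. Pax5, a transcription factor of B cells and the third measured marker, went the other way, with 15.5 in the Akita graft and 113 in the WT graft, and was at least 1.24-fold lower. Cd79a, the partner of Cd79b, was below the floor with 23.0 in the Akita graft and 44.9 in the WT graft. All 9 markers of macrophages and monocytes were past 2-fold higher, with a summed signal of 84586 in the Akita graft and 10475 in the WT graft. Of 5 neutrophil markers used here, 4 were measured and 3, S100a8, S100a9 and Csf3r, were past 2-fold higher, with a summed signal of 17145 in the Akita graft and 4407 in the WT graft, while Cxcr2 was below the floor in both. All 6 markers of endothelium were measured, and 0 were past 2-fold higher and 1, Tek, was past 2-fold lower. Their summed signal was 2224 in the Akita graft and 3128 in the WT graft. The part of these cell types in the ratios of Cd40, Tnfrsf1b, Tnfrsf13b and Tnfrsf13c was not tested.

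The decoy receptors were low. Tnfrsf11b, or osteoprotegerin, a soluble decoy of RANKL and TRAIL, had signals of 92.0 in the Akita graft and 64.8 in the WT graft on its brightest probe set, and 57.5 in the Akita graft and 68.6 in the WT graft on the other. Tnfrsf22, a decoy receptor of TRAIL in mouse, had signals of 120.2 in the Akita graft and 37.5 in the WT graft and was at least 1.45-fold higher, a bound that became a log2 ratio of -0.40 and gave no direction with the hybridization controls taken as equal, and its other 2 probe sets were below the floor. Tnfrsf23, its neighbour and close relative, had 73.5 in the Akita graft and 31.5 in the WT graft, both below the floor. Such close copies may share probes, and a probe set that carries both symbols was not used.

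Several probe sets represented 19 of the 40 members, and in 10 of these all ratios as deposited lay on 1 side of equality. At least 2 probe sets were measured for 5 members. Of these, Tnfrsf12a, Tnfrsf21 and Tnfrsf11a had ratios between 0.95 and 1.08 on every probe set, Cd40 was above 1 on all 3, and Tnfsf10 was on both sides. Over all 69 probe sets, 23 were measured, 4 of them past 2-fold higher (Ltb, Tnfrsf4 and 2 of Cd40) and 1 past 2-fold lower (Tnfsf10). The brightest probe set of Cd40 was not past 2-fold. The share over all probe sets of the array was not computed, so these counts have no background.

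Ligands and receptors among the members that bind each other were then set side by side, as 22 known pairs. Both partners were measured in 2 pairs, Ltb with Ltbr and Tnfsf10 with Tnfrsf22. In 13 pairs only the receptor was measured, in 2 only the ligand, and in 5 neither. Of the 12 ligands below the floor, 9 had at least 1 measured receptor, such as Tnf with Tnfrsf1a and Tnfrsf1b, and Fasl with Fas. The first pair ran in opposite directions, with ratios of 2.07 for Ltb and 0.78 for Ltbr. With the hybridization controls taken as equal, the log2 ratios were 0.12 for Ltb and -1.29 for Ltbr.

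Genes that act downstream of these receptors were counted in the same way. Over all 5 lists given here, 50 of 55 genes were measured, 3 (6%) were past 2-fold higher and 0 lower, against 4.33% higher and 2.15% lower of all measured genes, so that the shares lay near those of all genes. Of 29 listed adaptors and kinases, 26 were on probe sets used here and all 26 were measured, with 1 past 2-fold higher and 0 lower. It was Ripk3, a kinase of necroptosis, with 241 in the Akita graft and 62.8 in the WT graft, at least 2.91-fold. That bound would be under 2-fold with the hybridization controls taken as equal. The caspase that death receptors activate, Casp8, had signals of 1718 in the Akita graft and 1737 in the WT graft, and its inhibitor Cflar 3029 in the Akita graft and 2486 in the WT graft. Traf2, an adaptor of TNF receptors, had signals of 286 in the Akita graft and 476 in the WT graft.

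Of 9 subunits and inhibitors of NF-kB, all 9 were measured and 0 were past 2-fold in either direction, with a median log2 ratio of 0.30 (-0.04 over all measured genes). Nfkbia, an inhibitor that NF-kB itself induces, had signals of 22150.0 in the Akita graft and 11351 in the WT graft, a ratio of 1.95. Tnfaip3, or A20, another induced inhibitor, had signals of 853 in the Akita graft and 453 in the WT graft (ratio 1.88), and the subunit gene Nfkb2 483 in the Akita graft and 256 in the WT graft (ratio 1.88). The subunit gene Rela had signals of 2311 in the Akita graft and 1996 in the WT graft. The ratios of Nfkbia, Tnfaip3 and Nfkb2 were close to the 1.91-fold of the hybridization controls. With these controls taken as equal, the signals of those genes would differ little between the grafts.

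Of 11 genes that TNF is known to induce, 9 were measured, and 2 were past 2-fold higher and 0 lower. The first was Cxcl1, a chemokine of neutrophils, with 7704 in the Akita graft and 3314 in the WT graft (ratio 2.32). The second was Cxcl10, a chemokine of T cells, with 349 in the Akita graft and 156 in the WT graft (ratio 2.24). Neither would be past 2-fold with the hybridization controls taken as equal. Of the 9 measured genes, 5 were higher and 4 lower, such as Tnfaip8 with 8867 in the Akita graft and 13264 in the WT graft. The adhesion molecule genes Icam1 and Vcam1 had signals of 1039 and 258 in the Akita graft and 855 and 283 in the WT graft. Of 6 genes that process or inhibit the processing of ligands, 5 were measured and 0 were past 2-fold. Adam17, the protease that releases TNF from the cell surface, had signals of 620.4 in the Akita graft and 563 in the WT graft, and Timp3, its inhibitor, 16411 in the Akita graft and 25667 in the WT graft. Of 3 family genes under other symbols, 1 was measured, the receptor gene Relt, at least 1.65-fold higher with 137 in the Akita graft and 67.4 in the WT graft, a bound under the 1.91-fold of the hybridization controls.

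**Figure D3:**
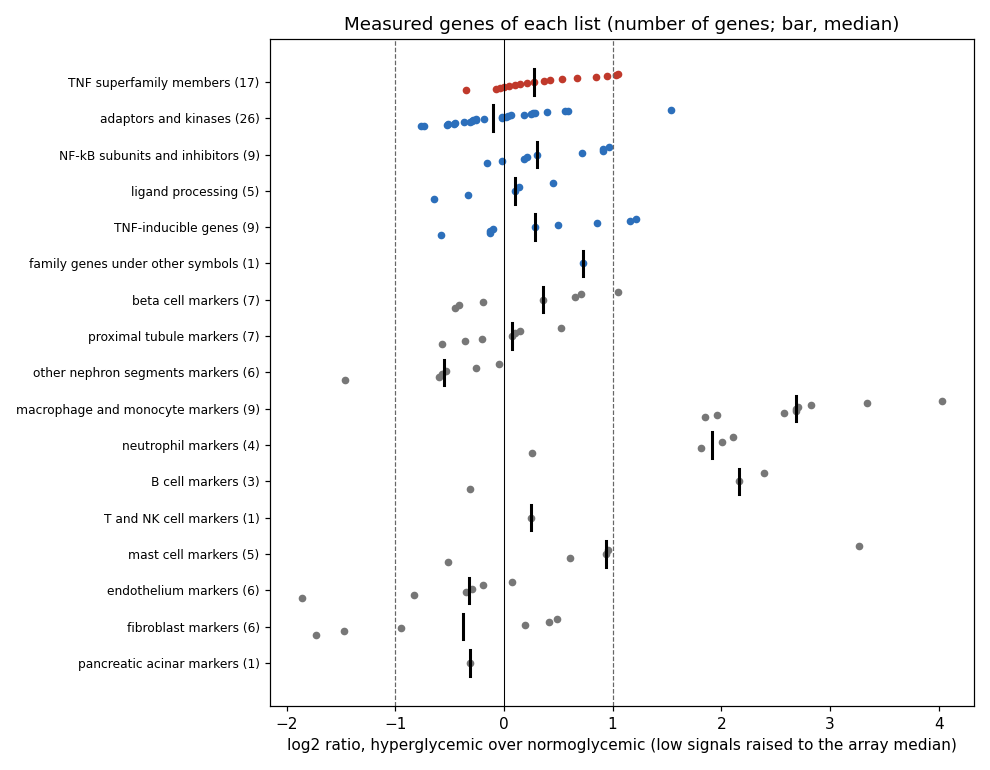
Log2 ratio of Akita over WT graft signals (x axis), 1 point per measured gene, for TNF superfamily members (red), pathway lists (blue) and cell type markers (grey), with black bars at list medians and dashed lines at 2-fold. The median of the members (0.28) lies near those of the TNF-inducible genes (0.28) and the NF-kB list (0.30). The adaptors and kinases (-0.10) lie to the left of it and the macrophage markers (2.69) far to the right. With the hybridization controls taken as equal, the median of the members was -0.66.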

How the data were processed

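The authors deposited MAS5 signal intensities of 45101 probe sets, 64 of them controls, for 2 MOE430 2.0 arrays, and the submitters' processing notes name MAS5 without a version. No source used here gives the settings, but the trimmed mean signal was 500.0 on both arrays. The columns were matched to the conditions through the sample labels. Names came from the annotation of the platform, in which 34945 probe sets other than controls carried 1 symbol, 932 several and 9160 none. All 40 member genes were found by gene identifier in RefSeq (GRCm38.p6), and 3 probe sets with a family symbol among several were not used. The table names no genome build, so coordinates are given only for RefSeq promoters.

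A gene with several probe sets was represented by that of highest mean log2 signal, low signals were raised to the array median, and the ratio of Akita over WT was computed without further scaling. A gene was called past 2-fold or 5-fold by this ratio. The precision is limited by the number of arrays, 1 per condition. The scatter of ratios was taken from neighbouring probe sets of 1 gene ordered by signal. All members were named, with values for those past 2-fold, the 8 measured members of highest signal, Tnf and those in the paper's tables. Further members were given values after they had been seen. The members, pathway lists and marker lists were chosen with earlier results of these data known. The calls were tested on simulated data with larger changes and less scatter than those of Ltb and Tnfrsf4, which does not bear on calls near 2-fold. Alternatives were other floors, median centring, quantile normalization, loess (span 0.3, 3 iterations), hybridization controls, other choices of probe set and a stricter filter. Python 3.11.15, numpy 2.4.6, pandas 2.3.3, statsmodels 0.14.6 and matplotlib 3.10.9 were used.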

Additional observations from a re-analysis of the deposited data

How the results depend on the processing

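The count of 2 members past 2-fold higher changed with most settings. It was 0 with a floor at the 75th percentile, with median centring and with hybridization controls taken as equal, 1 (Tnfrsf4) with quantile normalization and with loess correction, 6 without a floor and 13 of 33 measured with a floor at the 25th percentile, where 10.2% of all measured genes were past 2-fold higher and 7.81% lower. It was 2, with Ltb and Tnfrsf4 again, with specific probe sets or where both signals had to reach the floor, and 3 with the median of all probe sets, where Cd40 was added. The count past 2-fold lower, 0, was 1 without a floor (Tnfrsf18), 2 with a floor at the 25th percentile, 2 with hybridization controls taken as equal (Ltbr and Tnfrsf21) and 1 with the median of all probe sets (Tnfsf10). The count past 5-fold higher, 0, was 3 without a floor and 2 with a floor at the 25th percentile. The number of measured members, 17, was 33 with a floor at the 25th percentile, 7 with a floor at the 75th and 11 where both signals had to reach it. The median log2 ratio of the members, 0.28, was 0.51 without a floor and with a floor at the 25th percentile, 0.0018 with a floor at the 75th, 0.14 with median centring, 0.13 with the median of all probe sets and -0.66 with hybridization controls taken as equal. The median of all measured genes was -0.18 with median centring, against -0.04 without. Of 151 log2 ratios of single measured members under the alternatives, 127 moved by less than 1 SD between probe sets. Many of these could not move, so the count does not measure stability. A member at the floor on both arrays keeps its ratio with a lower floor, no floor or the stricter filter. A gene with 1 probe set keeps it with any choice of probe set. Of the 24 that moved further, 14 (of 17 members) did so with hybridization controls taken as equal. The causes were not tested. Signals near the array medians limit every count. No paired analysis was possible because each condition had 1 sample.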
